A study of Mus musculus with 12 samples.

Results

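Resting mouse mast cells edited at Mettl3 were compared with resting mast cells edited at Kit, over 6 of the 12 libraries of the series, namely the unstimulated libraries labelled Mettl3 KO (n = 3) and c-Kit KO (n = 3). All cells were bone marrow-derived mast cells (BMMCs) grown from young adult C57BL/6 mice for at least 4 weeks with IL-3. Cas9 with paired guides and a repair template then placed the green reporter ZsGreen into exon 2 of Kit or exon 1 of Mettl3. In the template a polyA-stop cassette followed ZsGreen. The ZsGreen+ cells were sorted, so each library holds a mixed population and not a clone. The other 6 libraries came from the same kinds of cells after 4 h with IgE and antigen. They enter here through the filter on low counts, the shared fit and stimulated values set beside some resting ones. The c-Kit KO cells carry the same cutting, insertion and sorting as the Mettl3 KO cells and served as the edited control, so no library of unedited cells stands beside them. The comparison asks how similar the mast cells of both genotypes were before any stimulus reached them.

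Mast cells are tissue-resident cells that carry IgE on the high-affinity receptor FcεRI and store proteases and histamine in granules, which they release when antigen crosslinks that IgE. Mettl3 is the catalytic subunit of the complex that writes N6-methyladenosine (m6A) on mRNA, a mark best known for shortening the life of the transcripts that carry it. Kit is the receptor for stem cell factor, on which mast cells depend in tissues, while in culture IL-3 can keep them growing.

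The guides show where the genotypes differ by design. Each is printed 5′ to 3′ as its genomic site on GRCm39, with the guide in lower case and the PAM, the motif beside the site that Cas9 requires, in capitals, and each matched the genome with a PAM at 1 place.
Mettl3_2-HDR: ggacacgtggagctctatccAGG
Mettl3_3-HDR: gatggggtaaccaacaatcgAGG
Kit_1: agtcgggatcaatgcacgtcAGG
Kit_2: aaagccgaggccactcgcacGGG
Mettl3_2-HDR lies at chr14:52542417-52542439 on the minus strand, in the coding part of exon 1 of transcript Mettl3-201 (52542345 to 52542592), and Mettl3_3-HDR at chr14:52542216-52542238 on the plus strand, in intron 1. Kit_1 lies at chr5:75767783-75767805 on the minus strand and Kit_2 at chr5:75767877-75767899 on the plus strand, both in coding exon 2 of transcript Kit-204 (75767686 to 75767958).

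RNA (40 ng) was hybridized to the nCounter Myeloid Innate Immunity Panel, in which each mRNA is caught by 1 barcoded probe and single barcodes are counted without amplification. Of 768 probes, 734 detect endogenous mRNAs. Resting libraries held between 504238 and 726601 endogenous counts, and counts were scaled by 20 housekeeping probes (normalized counts). Positive control probes had a geometric mean of 738 in c-Kit KO replicate 1 against 1282 to 1621 in the other resting libraries. Probes differ in efficiency, so an order of genes is an order of counts, not of molecules. Replicate numbers recur in both genotypes, and no label names the culture or mouse behind a number, so p-values measure the spread between these libraries.

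Mettl3 has no probe on the panel, so editing of Mettl3 could not be checked in these libraries. Normalized Kit counts were 1856, 2856 and 2826 in replicates 1, 2 and 3 labelled c-Kit KO and 4057, 2533 and 2456 in those labelled Mettl3 KO. Among libraries of one number, Kit counts were lower under the c-Kit KO label in replicate 1 and higher under it in replicates 2 and 3, against those labels. In the stimulated libraries Kit was lower under the c-Kit KO label at each number, with 1159, 1613 and 738 against 1845, 1771 and 1550, in the direction of the labels. The Kit probe starts at base 4275 of its RefSeq transcript, and exon 2 covers bases 204 to 476 of transcript Kit-204. The probe therefore lies downstream of the insertion and its polyA-stop cassette. Whether transcripts of edited alleles reach the probe was not tested. Directions below hold for the libraries as labelled.

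The resting profile was that of granulated mast cells in every library. Cpa3, the granule carboxypeptidase of mast cells, was the gene with the most counts in all 6 libraries and by itself took 22.7% to 36.4% of the endogenous counts. Its normalized counts were 218961, 219889 and 190726 in c-Kit KO and 142070, 213962 and 229736 in Mettl3 KO cells. The lowest and the highest of the 6 values both came from Mettl3 KO libraries. Between 64.5% and 68.5% of each library went to its 10 leading genes.

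Fcer1a, the IgE-binding chain of FcεRI, and Cma1, a granule chymase, came next and could not be ordered. Fcer1a had 78429, 89372 and 60420 normalized counts in c-Kit KO and 87090, 126364 and 61672 in Mettl3 KO cells. Cma1 had 83512, 88977 and 58162 in c-Kit KO and 69006, 104893 and 63030 in Mettl3 KO cells. Both genes peaked in Mettl3 KO replicate 2 and were low in replicate 3 of each genotype. Il1rl1, the receptor for the alarmin IL-33, ranked next without overlap with its neighbours, at 24089, 29406 and 22576 in c-Kit KO and 29640, 32578 and 22195 in Mettl3 KO cells.

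Ranks 5 to 10 overlapped and held the granule tryptase Tpsb2, the lysosomal protease Ctsd, the leukotriene-forming lipoxygenase Alox5, Vwa5a, the FcεRI beta chain Ms4a2 and the transcriptional inhibitor Id2. Tpsb2 varied with the library and not with the genotype, with 16227, 16489 and 8169 normalized counts in c-Kit KO and 19013, 8902 and 8030 in Mettl3 KO cells. Ctsd stood at 10470, 9802 and 7505 in c-Kit KO and at 17365, 17284 and 7243 in Mettl3 KO cells. The higher Ctsd values came from Mettl3 KO replicates 1 and 2, while those of replicate 3 were close to each other and the groups overlapped. Ms4a2 had 9771, 8086 and 7018 in c-Kit KO and 11320, 9536 and 7172 in Mettl3 KO cells, higher in the Mettl3 KO library of each number but by less than the spread between numbers.

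Ranks 11 to 20 held, in order, Scin, Laptm5, Nampt, Ly6c1, Hist2h2aa1, Alox5ap, S100a10, Ier3, Tyrobp and Furin. Furin, a protease that trims precursor proteins, differed least between libraries, from 4830 to 5898. Alox5ap, the partner protein that Alox5 needs to make leukotrienes, differed most, with 6610, 3725 and 3181 in c-Kit KO and 8121, 9144 and 2859 in Mettl3 KO cells.

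**Figure D1:**
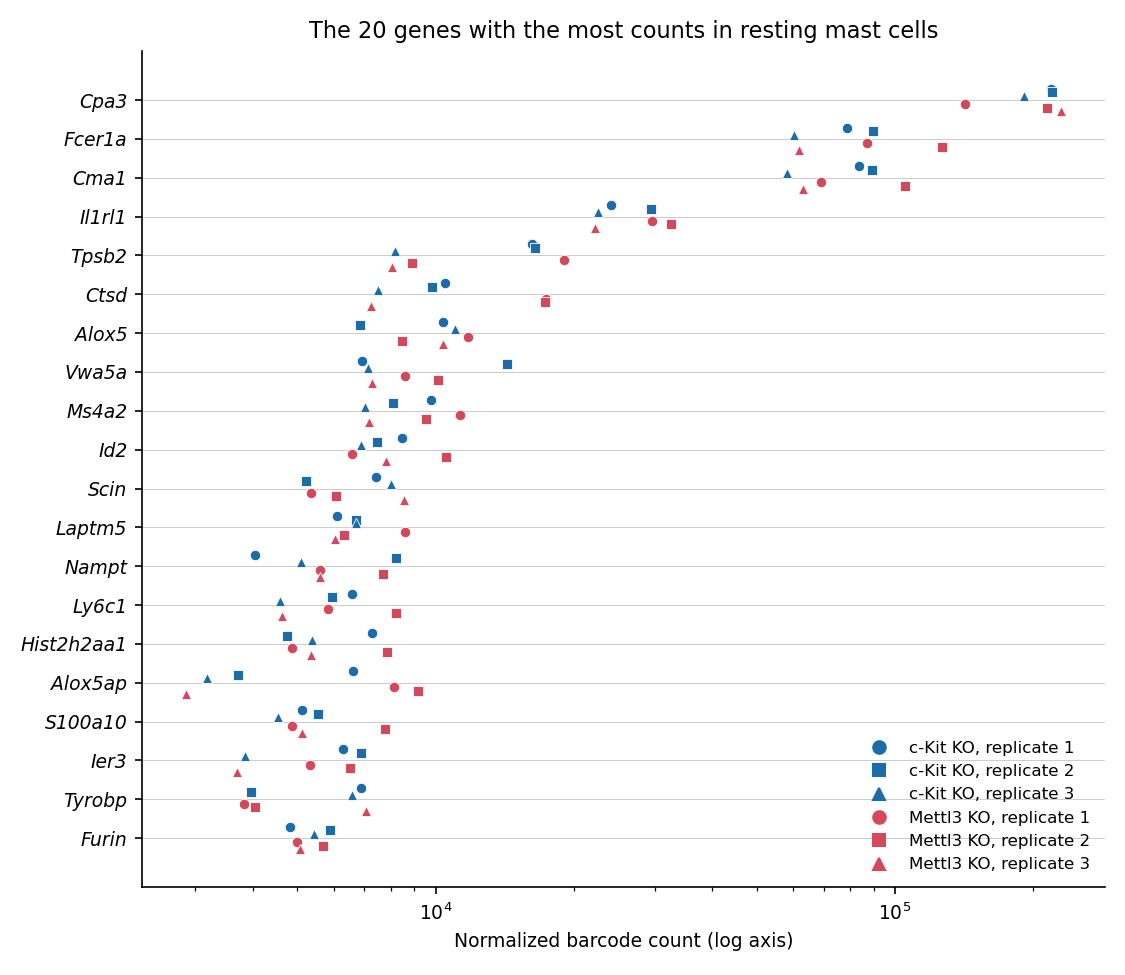
Normalized counts (log axis) of the 20 genes with the most counts, with 1 point per resting library, colour for the label and shape for the replicate number. Cpa3 leads every library with 142070 to 229736 normalized counts, and for each of the 20 genes the points of both labels overlap.

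Below these genes the profile fell steeply. Of the 734 endogenous genes, 6 had a mean over 10000 normalized counts, 57 (these included) one over 1000, 193 one from 100 to 1000 and 484 a mean under 100. Background was set for each library at the mean of the 8 negative control probes plus 2 SD. By this measure 306 genes were above background in 6 of 6 resting libraries, 148 in some of them and 280 in none.

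All 11 markers of the mast cell list (the granule genes Cpa3, Cma1 and Tpsb2, the receptors Kit, Il1rl1, Fcer1a and Ms4a2, the enzymes Hpgds and Hdc, and the factors Gata1 and Gata2) were above background in every library, and together they made up 62.3% of the endogenous counts. Gata2, a transcription factor that mast cells need, had 4226, 4189 and 4070 normalized counts in c-Kit KO and 5317, 4136 and 3764 in Mettl3 KO cells. Gata1, its partner in the lineage, stood between 347 and 451 in all 6 libraries. Markers of other cell types were mostly near background. Above it in none of the 6 libraries were 9 of 13 macrophage and monocyte markers, 8 of 10 for neutrophils, 6 of 7 for eosinophils, 4 of 7 for dendritic cells, 7 of 10 for lymphocytes and 6 of 7 for stromal and endothelial cells. Ly6c1 (4595 to 8206) and the fractalkine receptor Cx3cr1 (1321 to 2180) were the macrophage and monocyte markers above background in all 6 libraries, with ranges of both genotypes that overlapped. In bulk RNA, fewer cells of a type and less RNA per cell cannot be told apart.

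No resting gene separated the genotypes once all genes were taken into account. Testing covered the 545 genes that reached 20 counts in 3 or more of all 12 libraries. At an adjusted p under 0.05 (edgeR quasi-likelihood, Benjamini-Hochberg) 0 of them (0%) differed, and the smallest adjusted p was 0.997. DESeq2 and limma called 0 as well, and 7 genes had an unadjusted p under 0.05 in edgeR's test. In the same fit, which shares the resting libraries, 103 genes (18.9%) of c-Kit KO and 178 (32.7%) of Mettl3 KO cells passed that level for the response to stimulation, as did 5 (0.917%) for the genotypes when stimulated.

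The differences themselves were small for most genes. The median size of the log2 fold change of Mettl3 KO over c-Kit KO was 0.19, and 11 of 545 genes differed more than 2-fold. The median log2 fold change with its sign was 0.08, and 329 genes were above 0 and 216 below. With TMM normalization the median was 0.04, so a gene or list near these values has no direction of its own. The 95% interval of the fold change lay within 2-fold in either direction for 259 genes (47.5%), and for 156 of the 250 genes with a mean of at least 100 normalized counts. The standard error had a median of 0.36 on the log2 scale, so for the other genes this fit does not exclude a 2-fold difference. This fit does not use the replicate numbers, and with the number as a block 322 genes had an interval within 2-fold.

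**Figure D2:**
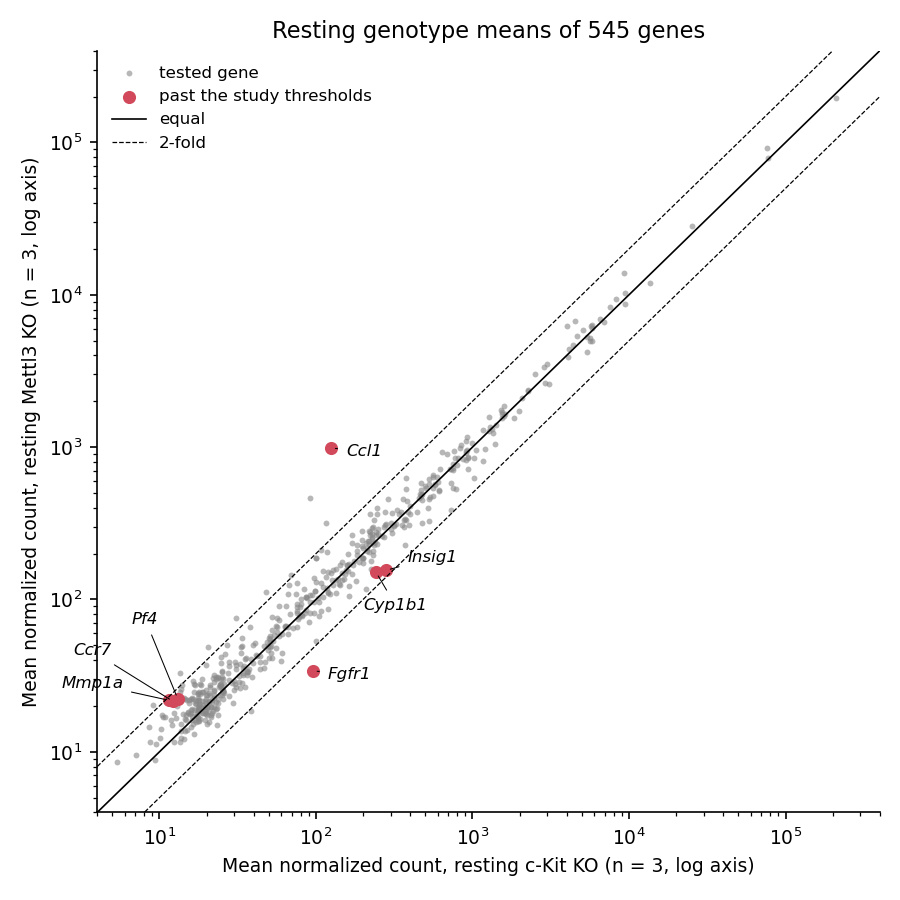
Mean normalized count of each of 545 genes in resting c-Kit KO (x axis, n = 3) and Mettl3 KO cells (y axis, n = 3), both on log axes, with lines for equal values and for 2-fold. Most genes lie between the 2-fold lines, and the 7 genes past the study thresholds are named, of which Ccl1 lies farthest from the line of equal values.

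Among the mast cell markers the interval lay within 2-fold for 7 of 11, which were Cpa3, Cma1, Il1rl1, Ms4a2, Gata1, Gata2 and Kit. Gata2 was the tightest of these, with a log2 fold change of 0.08 (95% interval -0.39 to 0.55), and Cpa3 had -0.10 (-0.83 to 0.62). For Fcer1a (0.27, interval -0.66 to 1.20), Tpsb2 (-0.19, interval -1.02 to 0.65), Hpgds and Hdc it was wider. With the replicate number as a block, all 11 markers lay within 2-fold, among them Fcer1a (0.21, interval -0.26 to 0.69) and Tpsb2 (-0.22, interval -0.96 to 0.53), as did 322 of all 545 genes. The median over the 11 markers was 0.06, next to 0.08 over all tested genes.

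The study's own thresholds ask for a fold change of 1.5 or more with p no higher than 0.05 before adjustment, and 7 of the 545 genes (1.28%) met them. In Mettl3 KO relative to c-Kit KO cells, Ccl1, Mmp1a, Ccr7 and Pf4 were above (4 genes, 0.734%) and Insig1, Cyp1b1 and Fgfr1 below (3 genes, 0.55%), each with an adjusted p of 0.997 (edgeR, Benjamini-Hochberg). The replicate numbers were taken to pair the resting libraries, from a correlation in these same data and not from a label. With the number as a block 12 genes passed the thresholds, 6 of them among these 7. The smallest adjusted p was then 0.992 (edgeR, Benjamini-Hochberg). Without Mettl3 KO replicate 2 the thresholds picked 0 genes, and without Mettl3 KO replicate 3 they picked 30. For the 7 genes named above, the stimulated log2 difference was 1.64 (Ccl1), 0.04 (Mmp1a), 0.13 (Ccr7), 0.12 (Pf4), 0.46 (Insig1), 0.11 (Cyp1b1) and -0.27 (Fgfr1). Insig1 and Cyp1b1 thus changed sign, and none of the 7 had a stimulated adjusted p under 0.49 (edgeR, Benjamini-Hochberg).

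Insig1, which holds back sterol synthesis when sterols are plentiful, had 231, 406 and 207 normalized counts in c-Kit KO and 164, 126 and 176 in Mettl3 KO cells. The groups did not overlap, and the nearest values, 207 and 176, were both of replicate 3, while the c-Kit KO replicates alone spanned 207 to 406. Its log2 fold change was -0.85 (standard error 0.31, n = 3 per group), and ran from -1.13 to -0.36 over 21 alternative settings. Insig1 was past the study thresholds in 17 of these 21, but not without c-Kit KO replicate 2 or without Mettl3 KO replicate 2. It lies at chr5:28276315-28283668 on the plus strand. Acly, which makes acetyl-CoA for lipids, had a log2 fold change of -0.05 (standard error 0.25).

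Cyp1b1, a cytochrome P450 enzyme at chr17:80008966-80022532 on the minus strand, had 311, 211 and 205 normalized counts in c-Kit KO and 147, 108 and 197 in Mettl3 KO cells. The groups were separated by the step from 205 to 197, both values of replicate 3. Fgfr1, a receptor for fibroblast growth factors, owed its log2 fold change of -1.49 (standard error 0.62) to 1 library. It had 39.7, 209 and 38.6 normalized counts in c-Kit KO and 36.5, 37.8 and 27.8 in Mettl3 KO cells, and only c-Kit KO replicate 2 stood out. Without that library its log2 fold change was -0.21.

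Ccl1, a chemokine that activated mast cells secrete, had 86.3, 166 and 123 normalized counts in c-Kit KO and 122, 2711 and 133 in Mettl3 KO cells. The log2 fold change of 2.98 (standard error 1.05) was that of Mettl3 KO replicate 2, the groups overlapped, and without this library it fell to 0.02.

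Mmp1a, Ccr7 and Pf4, a collagenase, a homing receptor and a platelet chemokine, were at or near background in all 6 libraries. Normalized counts of Mmp1a were 11.0, 10.3 and 13.5 in c-Kit KO and 21.3, 26.6 and 17.4 in Mettl3 KO cells. Ccr7 had 8.22, 14.9 and 13.5 against 21.3, 26.6 and 16.5, and Pf4 8.22, 14.9 and 16.1 against 23.3, 25.2 and 18.2. The groups did not overlap for any of the 3 genes, and the steps between them were a few counts. The mean of the negative controls on the same scale was 9.76, 20.4 and 16.8 in the c-Kit KO and 19.1, 22.4 and 13.1 in the Mettl3 KO libraries. With counts under 20 set to 20, the values of Mmp1a and Ccr7 turned to -0.042 each on the log2 scale. By the measure used above, Mmp1a, Ccr7 and Pf4 were above background in 0 of 6 libraries.

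**Figure D3:**
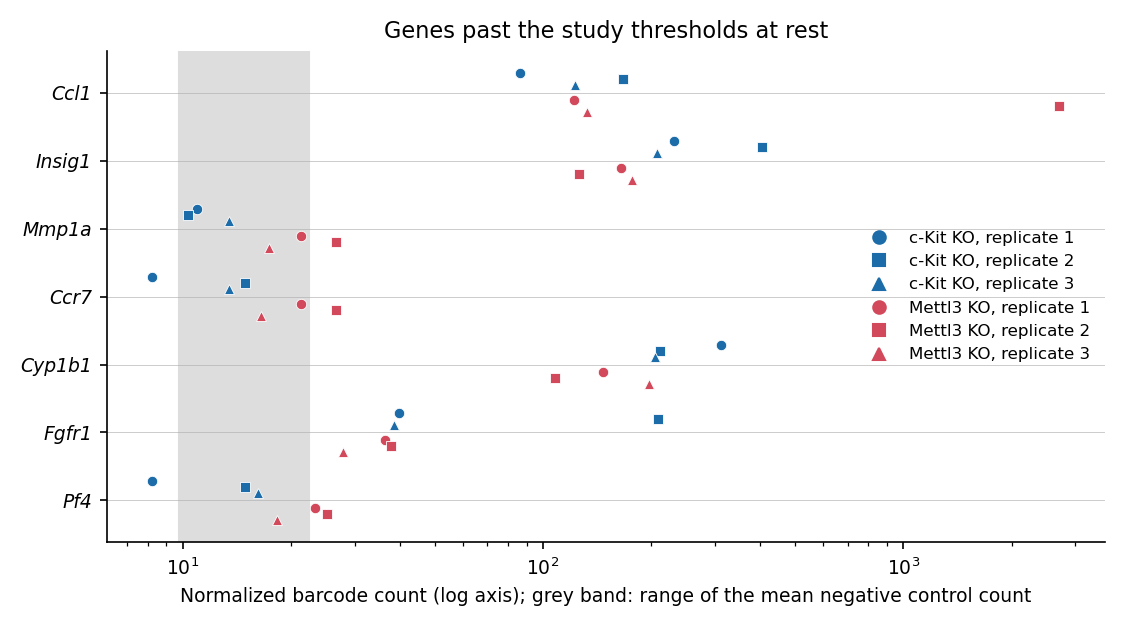
Normalized counts (log axis) of the 7 genes past the study thresholds, with 1 point per resting library and a grey band for the mean negative control counts of the libraries (9.76 to 22.4). Ccl1 is set by 1 Mettl3 KO library (2711) and Fgfr1 by 1 c-Kit KO library (209), while Mmp1a, Ccr7 and Pf4 lie in or near the band.

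The libraries of both genotypes did not overlap for 26 of the 545 genes (4.77%), 15 of them higher (2.75%) and 11 lower (2.02%) in Mettl3 KO cells. Among stimulated libraries the share was 16%. With 3 libraries a side, the groups of a gene can also separate at random, so a lack of overlap by itself shows no genotype difference. None of the 26 had an adjusted p under 0.997 at rest (edgeR, Benjamini-Hochberg). Of these 26, 12 were above background in every resting library and 6 in none. Lower with no overlap and above background were Insig1, Cyp1b1, Mif, Lif, Bcl2, Pim2 and Usp18, and higher were Lat, Map2k3, Icosl, Prdx1 and Vrk2.

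Mif, macrophage migration inhibitory factor, had 375, 633 and 413 normalized counts in c-Kit KO and 256, 326 and 366 in Mettl3 KO cells, a log2 fold change of -0.58 (standard error 0.30). Of these 12, Mif and Prdx1 were also free of overlap in the same direction when stimulated. For Mif the stimulated difference was -0.82 on the log2 scale, with a standard error of 0.30 and an adjusted p of 0.219 (edgeR, Benjamini-Hochberg). Bcl2, which holds back apoptosis, was lower in Mettl3 KO cells at rest (367, 352 and 380 against 339, 228 and 332) and higher when stimulated, without overlap in either state. Pim2, a survival kinase, had 766, 747 and 685 normalized counts in c-Kit KO and 564, 534 and 642 in Mettl3 KO cells. The log2 fold changes of Bcl2 and Pim2 were -0.29 (standard error 0.22) and -0.34 (standard error 0.26).

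Lat, the adaptor that gathers signalling proteins below FcεRI, had 530, 587 and 563 normalized counts in c-Kit KO and 693, 638 and 625 in Mettl3 KO cells. Its difference was small (log2 fold change 0.22, 95% interval -0.20 to 0.64) and its replicates were tight. In the IgE receptor signalling list as a whole, 13 of 13 genes were above background in every library and 0 passed the study thresholds. The median log2 fold change of the list was 0.17, next to 0.08 over all genes, and fell to 0.03 without Mettl3 KO replicate 1. The interval lay within 2-fold for 10 of these 13, among them Syk (0.14) and Btk (0.04), kinases that carry the receptor signal. Icosl, the ligand of the costimulatory receptor ICOS, had 39.7, 33.3 and 41.3 normalized counts in c-Kit KO and 65.9, 82.5 and 48.6 in Mettl3 KO cells.

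Resting libraries of unlike genotype were no farther apart than replicates of 1 genotype. Over the 545 genes the median log2 distance between libraries was 0.40, 0.40 and 0.17 for c-Kit KO against Mettl3 KO of number 1, 2 and 3. Between replicates of 1 genotype it ran from 0.31 to 0.57, and for unlike genotypes with unlike numbers from 0.30 to 0.52. Pearson's r of log2 values, which all share the panel and its range of levels, was 0.975, 0.964 and 0.991 for the pairs and 0.943 to 0.973 within a genotype. Replicate 3 of both labels was the closest pair, with 17 genes more than 2-fold apart. Of the summed squares of all tested genes, replicate number took 62.3%, genotype 11.9% and the remainder 25.7%, where libraries that all varied alike would give 40%, 20% and 40%. Number had the largest part for 355 genes and genotype for 46. These gene counts have no such reference, and number would lead for more genes than genotype even if all libraries varied alike.

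The pairs also differed in direction. Mettl3 KO was higher for 366 and 338 of 545 genes in pairs 1 and 2 but for 168 in pair 3. More than 2-fold, 55 genes were higher in each of pairs 1 and 2 and 0 in pair 3. Over the 3 pairs, 68 genes were higher in Mettl3 KO in each and 49 in none.

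**Figure D4:**
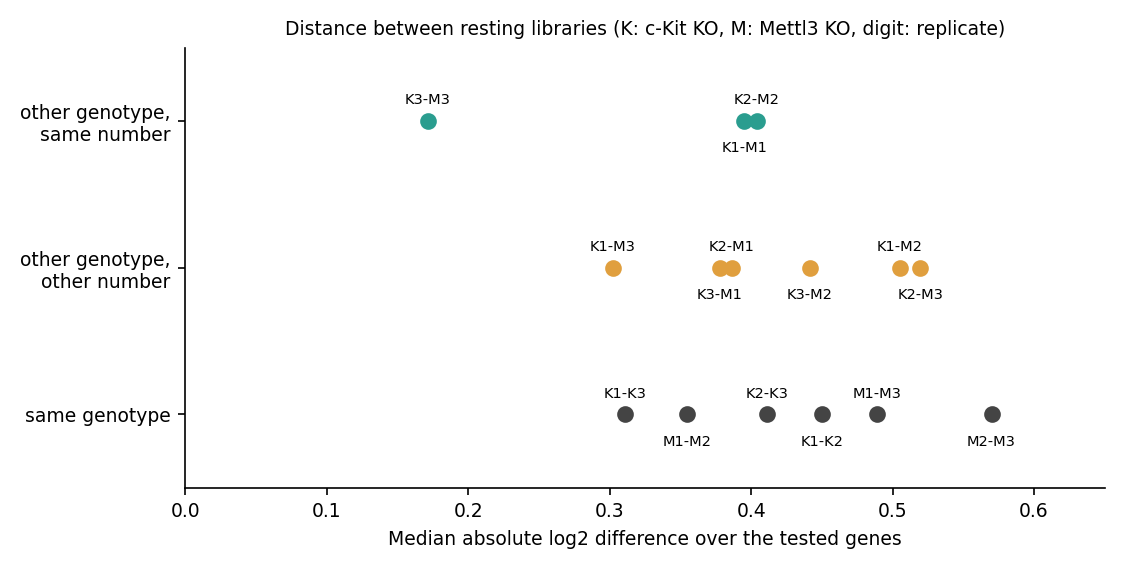
Median absolute log2 difference over 545 genes for each of the 15 pairs of resting libraries, in rows for same genotype, other genotype with other number, and other genotype with same number (K: c-Kit KO, M: Mettl3 KO). The pair of replicate 3 is the closest at 0.17, and replicates of 1 genotype are 0.31 to 0.57 apart.

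Several genes moved with the number in both genotypes. Hdc, the enzyme that makes histamine, had 181, 322 and 658 normalized counts in c-Kit KO and 125, 269 and 738 in Mettl3 KO cells, so replicate 3 was highest under both labels. Ctsg, the granule protease cathepsin G, had 1086, 163 and 989 in c-Kit KO and 485, 192 and 933 in Mettl3 KO cells, lowest in replicate 2 of each. Pdzk1ip1 had 290, 384 and 61.9 in c-Kit KO and 391, 660 and 46.0 in Mettl3 KO cells, lowest in replicate 3 of each. Ccl3 and Ccl7, chemokines that draw monocytes, were highest in replicate 2 of each genotype. Ccl3 had 45.2, 199.7 and 28.7 in c-Kit KO and 127, 1244 and 23.4 in Mettl3 KO cells, and Ccl7 31.5, 280 and 38.6 against 82.2, 824 and 43.4.

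In the cytokine and chemokine list, Mettl3 KO replicate 2 stood above the other libraries. Of 28 genes on the panel, 25 were tested, 13 were above background in every library, and Ccl1 passed the study thresholds. The median log2 fold change of the 25 was 0.63, next to 0.08 over all genes, with 17 above 0 and 8 below. Without Mettl3 KO replicate 2 the median was -0.18 with 7 above 0, and without any other resting library it lay between 0.42 and 0.98. Mettl3 KO replicate 2 had the highest value for 17 of the 25 (68%), against 32.3% over all tested genes. The 25 include genes not above background in every library. After scaling, the mean negative control count was also highest in that library, at 22.4 against 9.76 to 20.4 in the other 5. How much this adds to the 17 or to the median was not tested. The summed normalized counts were 21384 in that library and between 5365 and 10372 in the other 5. Ccl2, a monocyte-attracting chemokine with the most counts of the list, had 3511, 5852 and 2773 in c-Kit KO and 4706, 11231 and 2823 in Mettl3 KO cells. Il6 (729, 936 and 667 against 668, 1246 and 635) and Il4 (203, 185 and 206 against 167, 318 and 189) were likewise highest there. So was Il13, at 56.2, 53.9 and 92.4 against 74.1, 211 and 87.6. How that library came to be apart was not tested.

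In the cell cycle list c-Kit KO replicate 2 stood below the others. Its 11 genes had a median log2 fold change of -0.05 that became 0.11 with the replicate block and -0.46 without c-Kit KO replicate 2, so no direction can be given. Over these genes c-Kit KO replicate 2 was lowest for 10 of the 11 (90.9%), against 17.8% over all genes. Top2a, which untangles DNA before division, had 623, 115 and 661 normalized counts in c-Kit KO and 357, 410 and 695 in Mettl3 KO cells. Mcm5, part of the helicase that starts replication, had 253, 79.2 and 373 against 170, 190 and 321. Summed over the list, c-Kit KO replicate 2 had 672 normalized counts and the other 5 libraries 1422 to 2536. For each of the 11 genes the libraries of both genotypes overlapped.

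**Figure D5:**
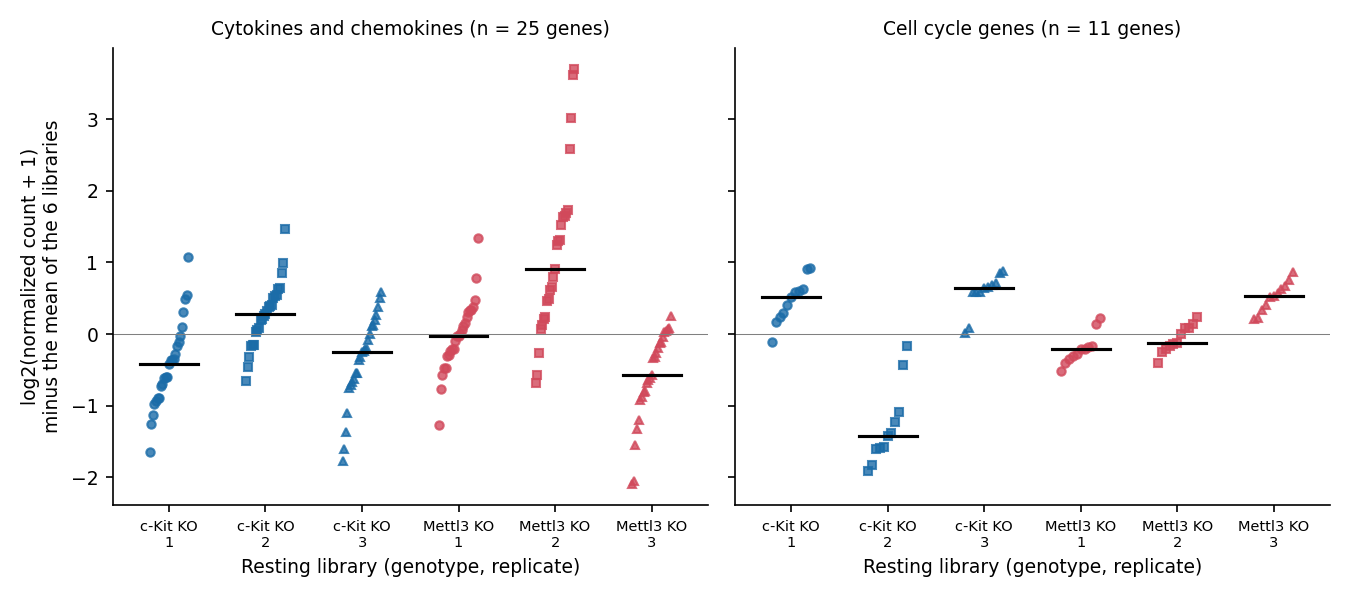
Difference of each gene's log2(normalized count + 1) from its mean over the 6 resting libraries, for 25 cytokine and chemokine genes (left) and 11 cell cycle genes (right), with 1 point per gene, points ordered within a library, and a bar at the median. Mettl3 KO replicate 2 stands above the others on the left (median 0.91) and c-Kit KO replicate 2 below them on the right (median -1.42).

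The following lists held 0 genes past the study thresholds, except that of dendritic cell markers, and their medians ran from -0.14 to 0.51. Growth factor and cytokine receptors (13 tested, 0 past the study thresholds) had a median log2 fold change of 0.06, lineage transcription factors (12 tested, 0) one of 0.09, and enzymes of histamine and eicosanoid synthesis (8 tested, 0) one of 0.08. Granule proteases (4 tested, 0) had a median of -0.14 and feedback inhibitors of signalling (13 tested, 0) one of -0.14. The feedback inhibitor median was 0.04 without c-Kit KO replicate 2 and 0.03 without Mettl3 KO replicate 3, so it has no firm direction. Immediate early and activation genes (15 tested, 0) had a median of -0.05 that became 0.06 with the replicate block, so no direction can be given. Interferon response genes (12 tested, 0) had a median of 0.30, above the 0.08 of all genes. Without Mettl3 KO replicate 1 this median fell to 0.05. Pattern recognition genes (14 tested, 0) had a median of 0.18, which became -0.009 without Mettl3 KO replicate 2. Of the markers of other cell types, the 4 dendritic cell genes tested had a median of 0.41, with Ccr7 past the study thresholds, Ccr7 and Itgax higher and H2-Ab1 lower without overlap, and none of the 4 above background in every library. The 3 stromal and endothelial genes tested had a median of 0.51, and Tek alone of them was above background in every library. Without Mettl3 KO replicate 1 the median of these 3 genes fell to 0.03. Psmb8 and Tap2, which cut and carry peptides for antigen presentation, were high in Mettl3 KO replicates 1 and 2 but not in replicate 3, Psmb8 with 490, 344 and 301 against 645, 659 and 295. Tap2 had 337, 210 and 185 in c-Kit KO and 688, 336 and 177 in Mettl3 KO cells.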

How the data were processed

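The authors deposited raw barcode counts per probe, with no normalization, from the nCounter SPRINT instrument. They analysed them with nSolver v4.0. No alignment or genome build enters such counts. Columns were assigned through the sample titles, with 0 left over. Counts were divided by a library factor, the geometric mean over 20 housekeeping probes. Endogenous probes reaching 20 counts in 3 or more of all 12 libraries (545) were tested with edgeR 4.0.16 (R 4.3.3), by its quasi-likelihood test in 1 model of the 4 groups with Benjamini-Hochberg adjustment. Standard errors and 95% intervals come from the same test. Distances between libraries used log2(normalized count + 1).

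The members and gene lists were chosen with earlier results of these data known. Named genes are the 20 with the most counts, the mast cell markers and those past the study thresholds. Up to 5 further non-overlapping genes of smallest p and the 5 with the largest spread within a genotype were added. From each list came the members with the most counts and those with the smallest p in the resting comparison. Genes picked by p were thus chosen from the same values that are shown for them. Bcl2, Pim2, Map2k3, Usp18, Vrk2, Prdx1, Lif, Syk, Btk, Il13 and Il4 were added after their values were seen. The results of 1 named gene are not reported here. Deviations from the group means correlated between same-numbered resting libraries (r = 0.275, 0.508 and 0.502), so the numbers were taken to pair them. Resting replicates differed beyond counting noise (chi-square per degree of freedom 23.8 to 108). Guide sites and gene positions were matched to GRCm39 with GENCODE annotation. Alternatives with limma 3.58.1, DESeq2 1.42.0 and other settings are in the closing section. The tests were checked on simulated counts drawn independently for each library, which lacked the effect of replicate number seen in these data.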

Additional observations from a re-analysis of the deposited data

How the results depend on the processing

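None of the 21 alternatives gave a gene at an adjusted p under 0.05. The genes past the study thresholds numbered 7 as reported, 13 without the filter on low counts, 11 with background subtracted and 2 with limma without moderation on the resting libraries. They numbered 12 with the replicate block, and 18 with that block in a fit of the resting libraries only, which was chosen after seeing the data. Leaving out libraries gave 0 (without Mettl3 KO replicate 2) to 30 (without Mettl3 KO replicate 3). Genes with an interval within 2-fold numbered 259, 322 with the replicate block, 143 with background subtracted, and 110 to 203 with libraries left out. Genes without overlap numbered 26, 43 without the filter, 15 at a mean of at least 50 counts, 14 with counts under 20 set to 20, and 45 to 192 with libraries left out, where fewer libraries make overlap rarer. Mmp1a and Ccr7 turned to -0.042 each with counts under 20 set to 20. Of 83 named genes, 39 kept their sign in all 21 alternatives. The replicate block called 0 genes at an adjusted p under 0.05. Genes near the negative control counts cannot be told from background, and with 3 libraries per group the interval of many genes was wider than 2-fold.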
